A study of Homo sapiens with 9 samples.

Results

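AIRE, the autoimmune regulator, and 36 genes whose proteins have been described as partners of AIRE were examined in HEK293 cells, 37 genes in all. They were matched by name to the gene symbols of the deposited annotation, with no cutoff on their values, and lay on 40 of its 28829 transcript clusters (a cluster is the set of probes that reads 1 transcript region). Of the 37, 36 were read by a cluster with a single symbol and were tested among 17769 genes, and MYBBP1A lay only on a cluster shared with SPNS2. HEK293 is an established human embryonic kidney line. Total RNA was profiled 72 h after transient transfection with the empty plasmid PCMV (called vector here), with a plasmid expressing Aire or with a plasmid expressing MBD-VP16, on 3 arrays per group, 9 in all. All 3 groups thus carried a transfected plasmid, and no untransfected cells were analysed here. The labels give neither the species and extent of the transfected Aire nor the make-up of MBD-VP16. The initials MBD commonly stand for a methyl-CpG-binding domain, and the activation domain of the viral protein VP16 is widely used to switch on transcription. In bulk RNA of a transiently transfected culture, a change in some of the cells and a smaller change in all of them cannot be told apart, nor can fewer cells of a type and less RNA per cell.

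AIRE is known from epithelial cells of the thymic medulla, where it raises the transcription of many genes otherwise limited to peripheral tissues. It has no strong preference for a DNA sequence and acts with other nuclear proteins: the elongation kinase P-TEFb that releases paused RNA polymerase II, DNA-dependent protein kinase and topoisomerases, chromatin proteins, RNA-processing factors, and the carriers that move proteins through nuclear pores. AIRE has also been described together with ATF7IP and MBD1, proteins of methylated and silenced DNA. The RNA level of a partner says nothing of its binding to AIRE, which was not measured.

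The sequences before the start sites of AIRE and of 2 members that passed the test in each comparison against vector, TOP2A and SMC3, are shown because the MBD fold binds methylated CpG. They are the 250 bases upstream of the single start that RefSeq lists for each gene on GRCh38.p14, read 5′ to 3′ on the strand of the gene, with every CG dinucleotide in capitals: AIRE at chr21:44285626-44285875 (plus strand), TOP2A at chr17:40417897-40418146 (minus strand) and SMC3 at chr10:110567445-110567694 (plus strand).
AIRE: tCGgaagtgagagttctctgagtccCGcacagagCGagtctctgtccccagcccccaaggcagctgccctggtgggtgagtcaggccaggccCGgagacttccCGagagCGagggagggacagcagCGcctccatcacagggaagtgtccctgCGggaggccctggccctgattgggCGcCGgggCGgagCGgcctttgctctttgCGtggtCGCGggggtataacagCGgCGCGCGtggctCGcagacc
TOP2A: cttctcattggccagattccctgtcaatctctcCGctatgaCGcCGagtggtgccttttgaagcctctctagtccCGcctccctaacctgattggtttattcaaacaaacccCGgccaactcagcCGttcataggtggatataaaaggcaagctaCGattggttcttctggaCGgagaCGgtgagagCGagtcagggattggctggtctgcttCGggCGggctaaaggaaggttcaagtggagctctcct
SMC3: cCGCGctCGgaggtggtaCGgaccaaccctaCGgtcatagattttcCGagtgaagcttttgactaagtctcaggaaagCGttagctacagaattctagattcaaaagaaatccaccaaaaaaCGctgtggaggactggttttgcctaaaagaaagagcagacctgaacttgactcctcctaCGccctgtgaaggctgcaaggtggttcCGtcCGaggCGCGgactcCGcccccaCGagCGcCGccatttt
The AIRE window held 20 CG dinucleotides, that of TOP2A 12 and that of SMC3 17. Over all 35116 windows of this length the median was 11, with quartiles of 3 and 23, and 93.9% held at least 1 CG. The TOP2A window also held 4 copies of CCAAT, counted on both strands, where the AIRE window held 1 and the SMC3 window 0. In all windows, 32% held at least 1 copy and 0.874% held 4 or more. The window of the member H2AFX, which passed in neither comparison against vector, also held 4. These are counts of letters, and the methylation of these bases was not measured.

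Values are log2 signals after RMA, which corrects background and brings the arrays to a common distribution. Array medians lay between 6.52 and 6.56, and correlations across genes between arrays of the same group were 0.9904 to 0.9948. Upper quartiles were 7.945, 7.88 and 7.85 with vector, 7.86, 7.85 and 7.84 with Aire, and 7.84, 7.81 and 7.84 with MBD-VP16. Most members lay above these quartiles, and the part of the quartile differences in their small changes was not tested as a cause. Vector replicate 1 stood apart, with a residual SD of 0.164 against 0.111 to 0.138 on the other arrays. It was also the highest vector array for 27 of the 36 members in the fit, against 36.3% of all genes and 50.4% of genes at or above the median signal. The part of this array in the results was not tested as a cause, and counts are given with and without it. Of 8 genes written as known for HEK293, VIM, KRT8, KRT18 and CDH2 lay above the upper quartile of all 9 arrays, whereas PAX2 and LHX1 lay below the median of all 9. All 9 measured leukocyte markers, 7 of 8 fibroblast and endothelial markers and 9 of 12 thymic epithelial markers were below the median of every array. Of the thymic epithelial list, 6 genes, FOXN1 and PSMB11 among them, were below the lower quartile of all 9 arrays. LTBR of the same list was above the upper quartile of all 9. The mean signal per array over the thymic epithelial list ranged from 4.95 to 5.27 with vector, 5.19 to 5.22 with Aire and 5.23 to 5.30 with MBD-VP16. It ranged from 4.66 to 4.90, 4.74 to 4.76 and 4.63 to 4.81 for the leukocyte list in the same order, and from 4.87 to 5.09, 5.02 to 5.09 and 4.99 to 5.10 for the fibroblast and endothelial list. The ranges of the 3 groups overlapped for each of these lists, except that every MBD-VP16 array lay above every Aire array for the thymic epithelial list.

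AIRE itself stayed near the array median. Its cluster (chromosome 21, 45705763 to 45718102; positions here and below are those deposited with the annotation, whose build is not named) read 6.32, 6.52 and 6.46 on the vector arrays, 6.66, 6.57 and 6.76 on the Aire arrays, and 6.39, 6.67 and 6.52 on the MBD-VP16 arrays. The 3 Aire arrays lay just above the 3 vector arrays, and the MBD-VP16 arrays overlapped both. The difference from vector was 0.23 ± 0.092 with Aire (SE; 95% interval 0.02 to 0.44; limma adjusted p = 0.174) and 0.09 with MBD-VP16 (adjusted p = 0.569). AIRE exceeded the median of its own array on 4 of the 9 arrays and was the single member to fall below any array's median. Since the transfected sequence is not given, AIRE's probes need not match the construct, and the group called Aire rests on its label. MBD1, a repressor that binds methylated CpG, served to check the MBD-VP16 label: it read 8.49, 7.55 and 8.52 with vector, 8.24, 8.0 and 7.72 with Aire, and 10.12, 9.91 and 9.86 with MBD-VP16. The MBD-VP16 arrays were above all others, by 1.78 ± 0.239 over vector (adjusted p = 0.0016), and whether the cluster reads the construct or the cellular gene cannot be told from the labels.

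**Figure D1:**
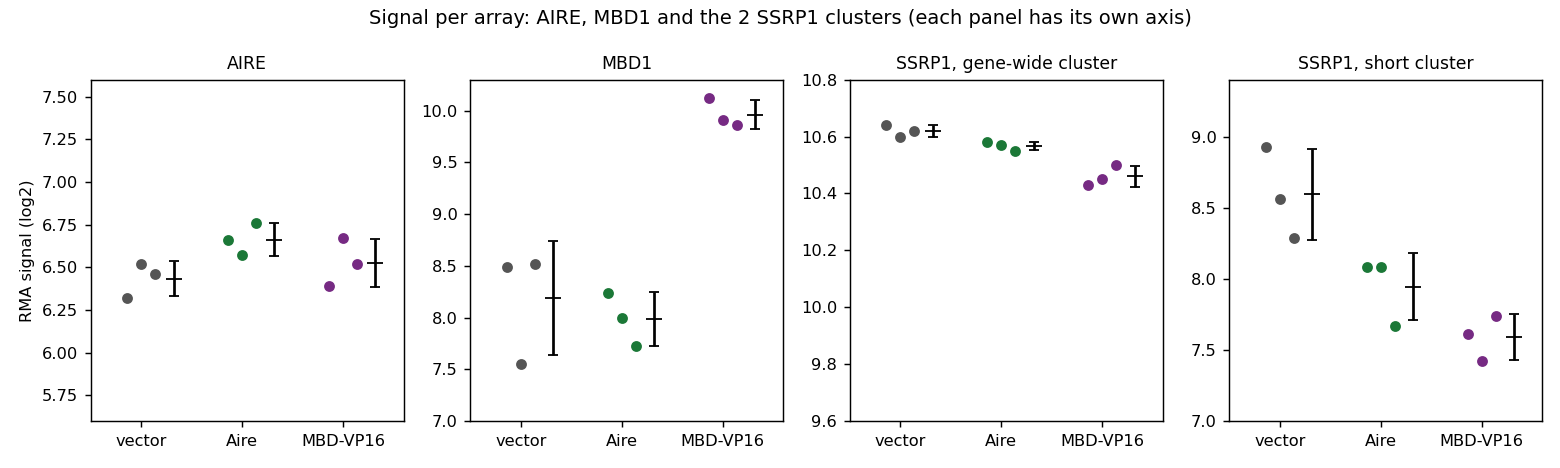
Signal per array (log2, RMA) of AIRE, MBD1 and the 2 clusters of SSRP1 in the 3 groups; each point is 1 array, and the bar is the mean with its SD (n = 3). AIRE differs by 0.23 between the Aire and vector means, MBD1 stands apart with MBD-VP16, and the short SSRP1 cluster steps down from vector to MBD-VP16 by more than the gene-wide cluster does.

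Between Aire and vector, 6 of the 36 members passed an adjusted p of 0.05 (16.7%), against 7.05% of all genes tested and 11.5% of genes at or above the median signal. All 36 members lay at or above that median, AIRE at its very edge. CBX5, TOP2A and MSN rose (3 members, against 2.47% of all genes), and CCNT1, SMC3 and JMJD6 fell (3, against 4.58%). The Aire arrays did not overlap the vector arrays for 21 members, 8 higher and 13 lower (58.3%, against 26.8% of all genes and 38.9% of those at or above the median signal). Of all genes, 12.3% were higher and 14.4% lower without overlap. Between MBD-VP16 and vector, 8 members passed (22.2%, against 13.6% of all genes and 19.5% at or above the median signal). CBX5, TOP2A and MSN rose (3, against 5.91%), and CCNT1, SMC3, TRIM28, DAXX and DHX9 fell (5, against 7.67%). Arrays did not overlap for 18 members, 4 higher and 14 lower (50%, against 30.9% and 43.1%, with 13.8% of all genes higher and 17.2% lower). For MBD-VP16 the members' share was thus close to that of genes at or above the median signal. All members but AIRE, CCNT2, CHD6 and JMJD6 lay above the upper quartile of all 9 arrays. Neither comparison thus had a background matched to the members in signal. The median log2 fold change of the members was -0.03 with Aire, where that of all genes was 0.02, and -0.06 with MBD-VP16, where that of all genes was 0.00. Over genes at or above the median signal it was -0.01 with Aire and -0.04 with MBD-VP16. Both comparisons use the same 3 vector arrays, so a high or low vector array moves the members the same way in each. Without vector replicate 1, CBX5 and TOP2A passed with Aire (2 members), and CBX5, TOP2A and SMC3 with MBD-VP16 (3 members). These are 5.56% of the members against 4.85% of all genes with Aire, and 8.33% against 9.79% with MBD-VP16. Other arrays mattered likewise. With Aire, the members' share was below that of all genes without vector 3 (2.78% against 6.11%) or Aire 2 (0% against 2.57%). It was close without Aire 3 or MBD-VP16 3, and higher without vector 2, Aire 1, MBD-VP16 1 or MBD-VP16 2. With MBD-VP16, the members' share was below or close without vector 2, Aire 1, Aire 2 or any 1 MBD-VP16 array. It was also close, though slightly higher, without vector 3 (13.9% against 12.7%) or Aire 3 (13.9% against 11.4%). The labels call the replicates biological without saying how the cultures were separated, so the p-values refer to the variation among these arrays only, and 3 arrays per group limit the precision.

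**Figure D2:**
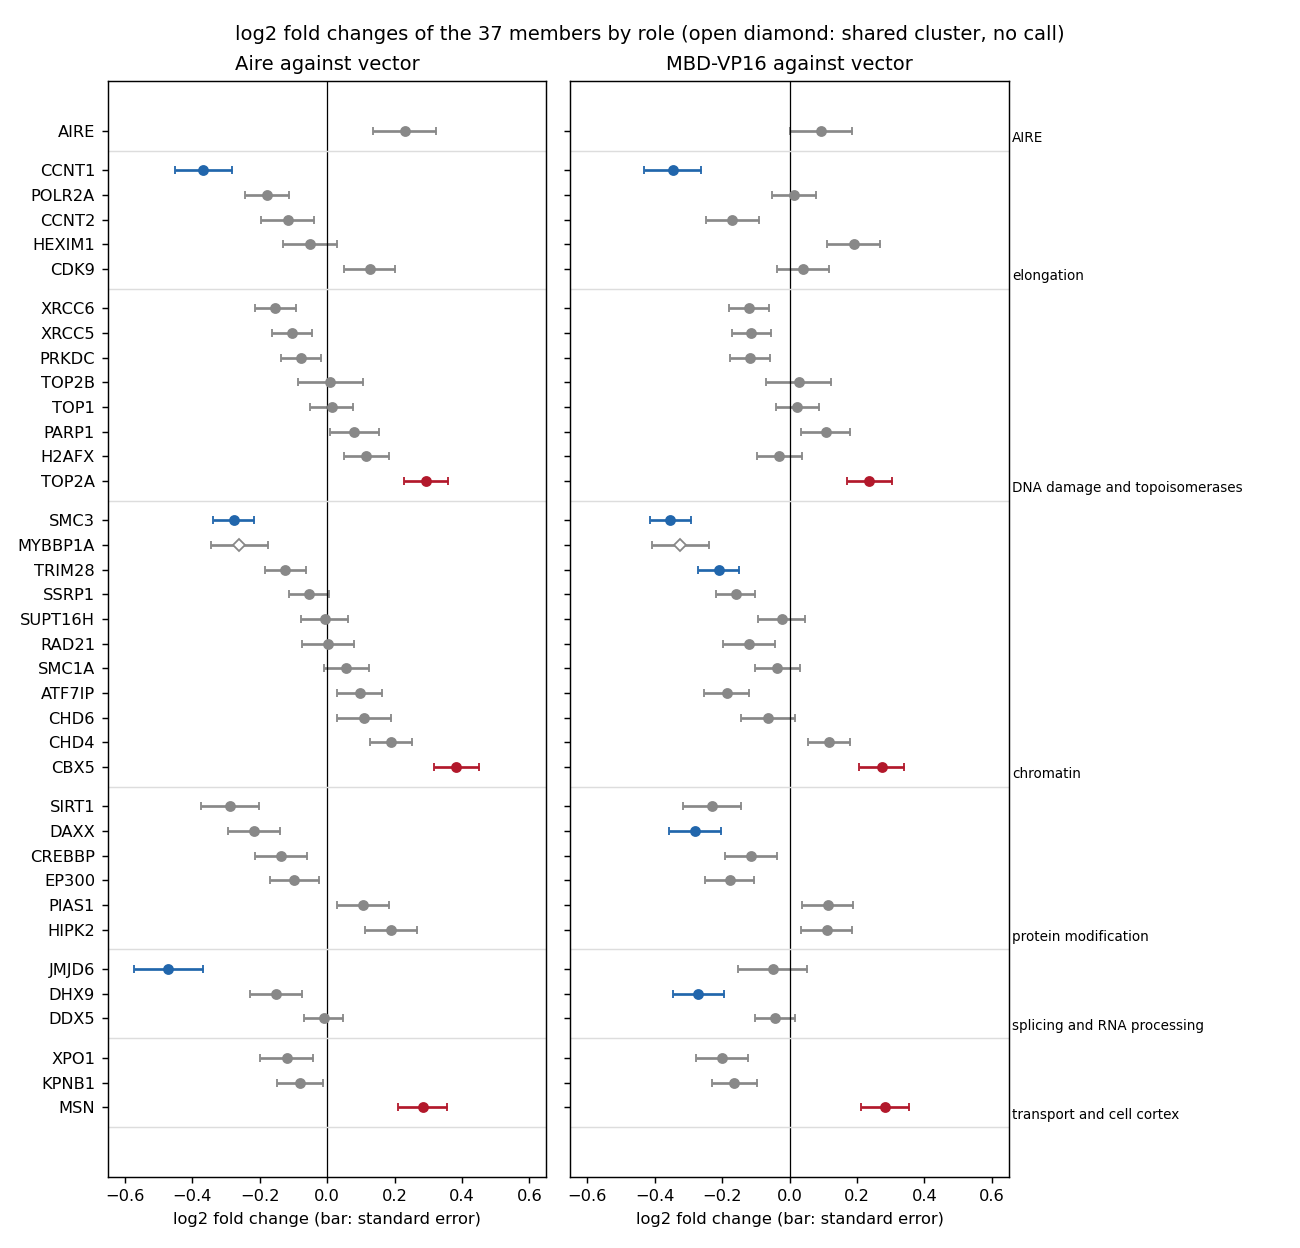
Log2 fold change of each of the 37 members against vector, grouped by role, with Aire on the left and MBD-VP16 on the right; the bar is the standard error, red and blue mark members that rose or fell at an adjusted p under 0.05, and grey marks the rest. Changes lie between -0.47 (JMJD6) and 0.38 (CBX5) with Aire and between -0.35 (SMC3) and 0.28 (MSN) with MBD-VP16.

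Among the 5 members of transcription elongation, cyclin T1 (CCNT1) fell and the others did not pass. One call is 20% of these members, where 7.05% of all genes passed with Aire and 13.6% with MBD-VP16. CCNT1 is the cyclin that activates the kinase CDK9 within P-TEFb. Its cluster (chromosome 12, 49086752 to 49110781) read 9.67, 9.41 and 9.5 with vector, 9.12, 9.25 and 9.11 with Aire, and 9.10, 9.23 and 9.21 with MBD-VP16. Every vector array was above every array of both other groups, with vector replicate 1 the highest. CCNT1 was 1.29-fold lower with Aire (log2 -0.37 ± 0.084, SE; limma adjusted p = 0.0317) and 1.27-fold lower with MBD-VP16 (-0.35 ± 0.084; adjusted p = 0.0246). Of the 9 fits that left out 1 array each, 6 lost the Aire call (vector 1 and 3, each Aire array, MBD-VP16 3) with an adjusted p of up to 0.105. For MBD-VP16, 4 lost it (vector 1 and each MBD-VP16 array) with an adjusted p of up to 0.0818.

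The kinase itself, CDK9, read 8.0, 8.07 and 8.04 with vector, 8.15, 8.16 and 8.18 with Aire, and 7.93, 8.11 and 8.19 with MBD-VP16. Its Aire arrays lay above the vector arrays by 0.13 (adjusted p = 0.363), and the MBD-VP16 arrays spread around both. The alternative cyclin CCNT2 differed by -0.12 with Aire and -0.17 with MBD-VP16, neither past the test. HEXIM1, which holds P-TEFb in an inactive complex, read 8.44, 8.27 and 8.27 with vector, 8.34, 8.31 and 8.18 with Aire, and 8.60, 8.44 and 8.51 with MBD-VP16. The MBD-VP16 arrays were the higher ones, touching the vector range at 8.44, and the difference of 0.19 from vector did not pass (adjusted p = 0.152). POLR2A encodes the largest subunit of RNA polymerase II, the target of P-TEFb. It read 9.79, 9.75 and 9.65 with vector, 9.53, 9.56 and 9.57 with Aire, and 9.79, 9.75 and 9.69 with MBD-VP16. The Aire arrays were below all 6 others, with a difference from vector of -0.18 that did not pass (adjusted p = 0.142), and the MBD-VP16 arrays matched those of vector (0.01).

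Of the 8 members that act in DNA damage and DNA topology, TOP2A rose in both comparisons and no other passed. That share of 12.5% stands beside 7.05% of all genes with Aire and 13.6% with MBD-VP16. TOP2A is the topoisomerase II of proliferating cells, which passes 1 DNA duplex through a break in another. Its cluster (chromosome 17, 38544795 to 38574169) read 10.56, 10.40 and 10.42 with vector, 10.73, 10.76 and 10.77 with Aire, and 10.74, 10.67 and 10.68 with MBD-VP16. All arrays of the transfected regulators were above the vector arrays, and vector replicate 1, the highest of its group, lay nearest to them. TOP2A was 1.23-fold higher with Aire (log2 0.29 ± 0.066; limma adjusted p = 0.0304) and 1.18-fold higher with MBD-VP16 (0.24; adjusted p = 0.0435). Leaving out 1 array at a time ended the Aire call in 6 of 9 fits (vector 2 and 3, each Aire array, MBD-VP16 3), at an adjusted p of up to 0.0968. It ended the MBD-VP16 call in 8, all but the fit without vector replicate 1, at up to 0.124.

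The sister enzyme TOP2B, which non-dividing cells also express, differed by 0.01 with Aire and 0.03 with MBD-VP16, and TOP1, which cuts a single strand, by 0.01 and 0.02. The 3 subunits of DNA-dependent protein kinase were all slightly lower in both groups. The catalytic subunit PRKDC read 9.85, 9.77 and 9.78 with vector, 9.75, 9.68 and 9.74 with Aire, and 9.69, 9.68 and 9.68 with MBD-VP16. XRCC5 and XRCC6, the Ku proteins that bind broken DNA ends, were likewise lower: XRCC6 read 10.05, 10.03 and 10.03 with vector, 9.86, 9.95 and 9.84 with Aire, and 9.90, 9.93 and 9.92 with MBD-VP16. For each of these 3 genes, every vector array was above every array of both other groups. The differences were small, at -0.08, -0.10 and -0.15 with Aire and -0.12, -0.11 and -0.12 with MBD-VP16 for PRKDC, XRCC5 and XRCC6, and none passed the test. PARP1, which marks breaks with poly(ADP-ribose), differed by 0.08 and 0.11, and the damage-marked histone gene H2AFX (now H2AX) by 0.12 and -0.03.

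Among the chromatin members, 10 of 11 were tested, and of these 2 passed with Aire (20%) and 3 with MBD-VP16 (30%). Of all genes 7.05% and 13.6% passed, and of genes at or above the median signal 11.5% and 19.5%. CBX5 encodes HP1 alpha, which binds methylated histone H3 in heterochromatin. Its cluster (chromosome 12, 54634736 to 54673886) read 10.73, 10.60 and 10.76 with vector, 11.11, 11.10 and 11.03 with Aire, and 10.94, 10.97 and 11.00 with MBD-VP16. The Aire arrays were highest, the MBD-VP16 arrays next and the vector arrays lowest, without overlap. CBX5 was 1.30-fold higher with Aire (log2 0.38 ± 0.067; limma adjusted p = 0.0115) and 1.21-fold higher with MBD-VP16 (0.27; adjusted p = 0.0261). The Aire call was lost only without Aire replicate 2 (adjusted p = 0.0509), and the MBD-VP16 call without vector replicate 2 or any 1 of the MBD-VP16 arrays (up to 0.088).

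SMC3, a core arm of the cohesin ring that holds sister chromatids and chromatin loops, fell in both. Its cluster (chromosome 10, 112327449 to 112364394) read 10.40, 10.32 and 10.36 with vector, 10.09, 10.08 and 10.08 with Aire, and 10.07, 9.96 and 9.99 with MBD-VP16. Each vector array was above each array of both regulators by more than the spread within any group. SMC3 was 1.21-fold lower with Aire (-0.28 ± 0.061; adjusted p = 0.0284) and 1.28-fold lower with MBD-VP16 (-0.35; adjusted p = 0.00575). The MBD-VP16 call held in all 9 fits without 1 array (adjusted p up to 0.0278), whereas the Aire call was lost in 7 (each vector array, each Aire array, MBD-VP16 3; up to 0.0924). The other cohesin members did not pass: SMC1A differed by 0.06 and -0.04, and RAD21, the closing subunit, by 0.00 and -0.12.

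TRIM28, a corepressor recruited by zinc-finger proteins, fell with MBD-VP16 alone by the test. It read 9.23, 9.17 and 9.19 with vector, 9.11, 9.02 and 9.09 with Aire, and 8.99, 9.01 and 8.96 with MBD-VP16. The groups lay in that order without overlap, at -0.12 with Aire (adjusted p = 0.261) and -0.21 ± 0.060, or 1.16-fold lower, with MBD-VP16 (adjusted p = 0.0471). Each of the 9 fits without 1 array lost the TRIM28 call (adjusted p 0.0649 to 0.139), and its cluster spans 200007 bases of chromosome 19 (58862077 to 59062083) in the deposited positions. ATF7IP, a cofactor of the histone methyltransferase SETDB1 and of MBD1, read 9.19, 9.20 and 9.19 with vector, 9.33, 9.35 and 9.19 with Aire, and 9.04, 8.96 and 9.02 with MBD-VP16. The MBD-VP16 arrays were below all others, at -0.19 from vector (adjusted p = 0.0957). CHD4, the helicase of the NuRD repressor complex, differed by 0.19 with Aire (adjusted p = 0.109) and 0.12 with MBD-VP16, and CHD6 by 0.11 and -0.06. MYBBP1A, a nucleolar protein, could be read only from the cluster shared with SPNS2, which was 7.91, 8.19 and 7.95 with vector, 7.78, 7.74 and 7.75 with Aire, and 7.75, 7.63 and 7.70 with MBD-VP16. That cluster was lower in both groups, by -0.26 and -0.32, and the signal cannot be assigned to either gene. In the fit over all clusters its adjusted p was 0.123 for Aire and 0.0437 for MBD-VP16.

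SUPT16H and SSRP1 form the histone chaperone FACT, which opens nucleosomes before the polymerase. SUPT16H differed by -0.01 and -0.02. The gene-wide cluster of SSRP1 (chromosome 11, 57093459 to 57103351) read 10.64, 10.60 and 10.62 with vector, 10.58, 10.57 and 10.55 with Aire, and 10.43, 10.45 and 10.50 with MBD-VP16, and neither difference passed (-0.05; -0.16, adjusted p = 0.102). The groups stood in steps without overlap. A separate cluster of 101 bases inside the gene (57096335 to 57096435) moved much further: it read 8.93, 8.56 and 8.29 with vector, 8.08, 8.08 and 7.67 with Aire, and 7.61, 7.42 and 7.74 with MBD-VP16. Its vector arrays spread widely but stayed above all 6 others. The short cluster fell 2.00-fold with MBD-VP16 (log2 -1.0 ± 0.169; adjusted p = 0.00504), in the fit and in all 18 alternatives (adjusted p up to 0.0237; -0.84 without vector replicate 1). With Aire it differed by -0.65 ± 0.169 and missed the threshold (adjusted p = 0.0500134). It passed with Aire in 7 of the 18 alternatives, among them the fit without vector replicate 3 (adjusted p = 0.0295), and the highest adjusted p was 0.15. The 2 clusters of SSRP1 therefore disagree in size, and the member counts above use the gene-wide one.

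The 6 members that modify proteins held 1 call, with MBD-VP16 (16.7%, against 13.6% of all genes). DAXX, a chaperone of a histone variant that SUMO-bearing proteins recruit, was read by 3 clusters with overlapping positions on chromosome 6, all annotated as open to cross-hybridisation. The cluster counted (33286336 to 33290724) read 8.33, 8.21 and 8.19 with vector, 7.96, 8.0 and 8.12 with Aire, and 7.87, 8.01 and 8.01 with MBD-VP16. The vector arrays were above those of both other groups, which overlapped each other. DAXX was 1.21-fold lower with MBD-VP16 (log2 -0.28 ± 0.076; limma adjusted p = 0.0386) and differed by -0.22 with Aire (adjusted p = 0.124). Its other 2 clusters gave adjusted p-values of 0.0406 and 0.0424 with MBD-VP16. In 7 of the 9 fits without 1 array the MBD-VP16 call was lost (vector 1 and 2, Aire 1 and 2, each MBD-VP16 array; up to 0.121). SIRT1, a deacetylase known to act on AIRE, read 8.67, 8.34 and 8.44 with vector, 8.24, 8.17 and 8.18 with Aire, and 8.27, 8.23 and 8.26 with MBD-VP16. Every vector array was higher, most of all vector replicate 1, and the differences of -0.29 (adjusted p = 0.0779) and -0.23 (adjusted p = 0.11) did not pass. The acetyltransferases CREBBP and EP300 differed by -0.14 and -0.10 with Aire and by -0.11 and -0.18 with MBD-VP16. The kinase HIPK2 differed by 0.19 and 0.11, and the SUMO ligase PIAS1 by 0.11 in both comparisons, none past the test.

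Among the 3 members of splicing and RNA processing, JMJD6 was the member that differed most between the regulators. JMJD6 is a hydroxylase that modifies lysines of splicing factors and in the mouse has been described as acting on the splicing of the Aire transcript. Its cluster (chromosome 17, 74708919 to 74722563) read 8.16, 7.91 and 7.98 with vector, 7.68, 7.63 and 7.33 with Aire, and 7.99, 7.93 and 7.98 with MBD-VP16. The 3 Aire arrays lay below all 6 others, and the MBD-VP16 arrays fell within the vector range. JMJD6 was 1.39-fold lower with Aire (log2 -0.47 ± 0.102; limma adjusted p = 0.0267) and differed by -0.05 with MBD-VP16 (adjusted p = 0.804). Without vector 1, vector 3, Aire 2 or Aire 3 the Aire call was lost (adjusted p up to 0.0715). The helicase DHX9, which unwinds RNA and DNA, read 9.79, 9.54 and 9.66 with vector, 9.51, 9.53 and 9.5 with Aire, and 9.45, 9.32 and 9.41 with MBD-VP16. Its MBD-VP16 arrays were below all others, and vector replicate 2 came within 0.01 of an Aire array. DHX9 was 1.21-fold lower with MBD-VP16 (-0.27 ± 0.077; adjusted p = 0.0459) and differed by -0.15 with Aire (adjusted p = 0.284). The DHX9 call was lost in 8 of the 9 fits without 1 array, all but that without vector replicate 2 (up to 0.146). DDX5, a related helicase of splicing, differed by -0.01 and -0.04.

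Of the 3 members of transport and the cell cortex, MSN rose and the nuclear carriers did not pass. MSN encodes moesin, which links actin to the plasma membrane. Its cluster (chromosome X, 64887511 to 64961793) read 9.55, 9.48 and 9.56 with vector, 9.81, 9.74 and 9.89 with Aire, and 9.78, 9.75 and 9.91 with MBD-VP16. The vector arrays were below both other groups, which covered the same range. MSN was 1.22-fold higher in each (log2 0.28 ± 0.072; limma adjusted p = 0.0449 with Aire and 0.0297 with MBD-VP16). Every fit without 1 array lost the Aire call (adjusted p 0.0552 to 0.146), and 5 lost the MBD-VP16 call (vector 1 and 2, each MBD-VP16 array; up to 0.106). KPNB1, the importin that carries proteins into the nucleus, differed by -0.08 with Aire and -0.16 with MBD-VP16, and XPO1, the main exporter, by -0.12 and -0.20.

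**Figure D3:**
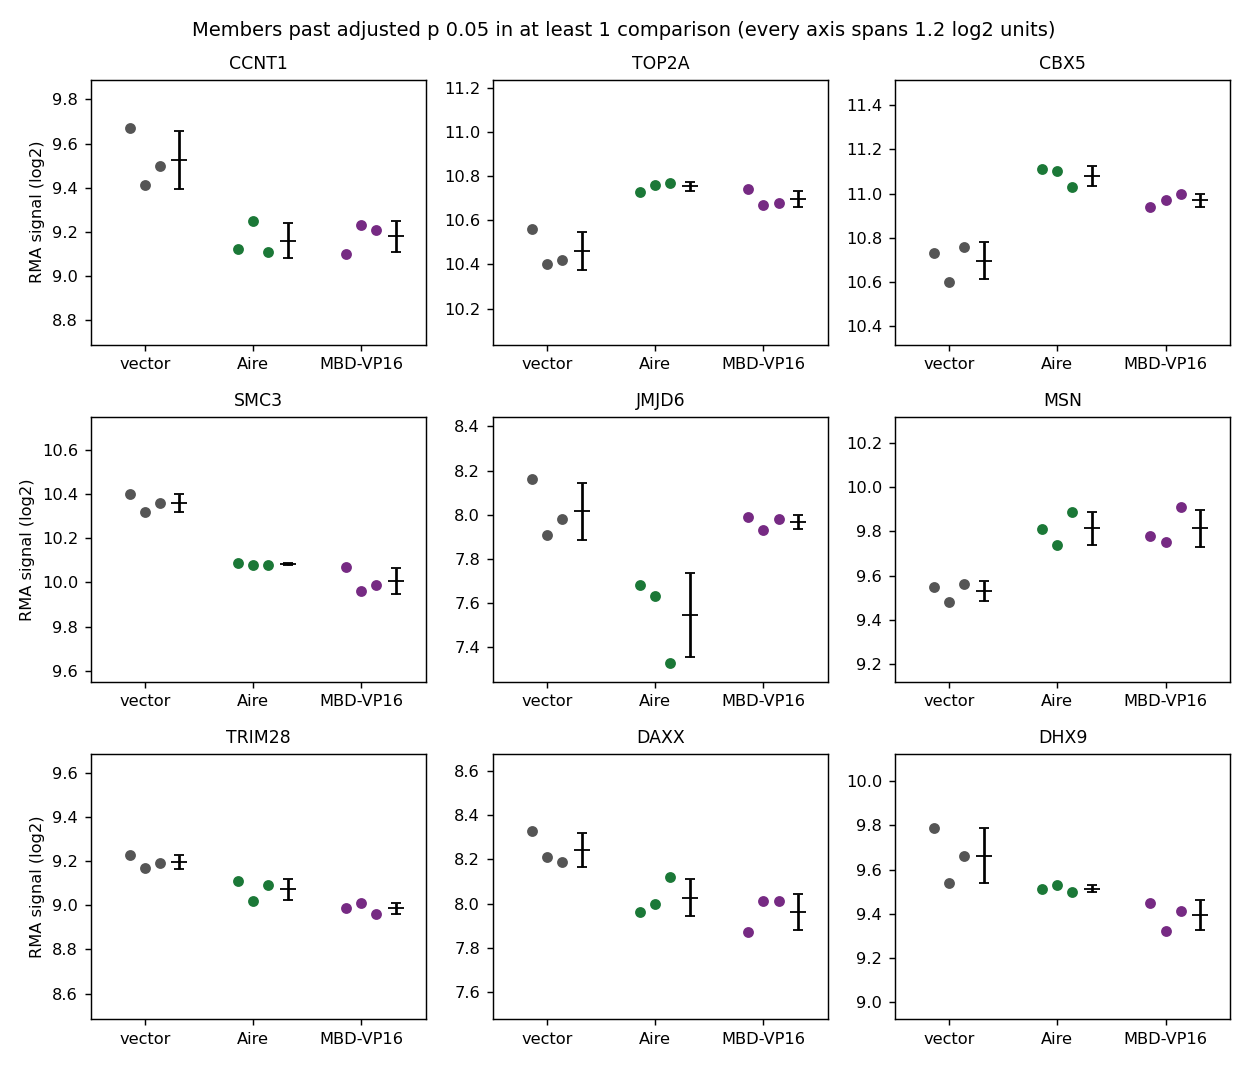
Signal per array (log2, RMA) of the 9 members that passed an adjusted p of 0.05 in at least 1 comparison; each point is 1 array, the bar is the mean with its SD (n = 3), and every axis spans 1.2 log2 units. JMJD6 is low on the 3 Aire arrays alone, whereas CCNT1, TOP2A, CBX5, SMC3 and MSN shift the same way with Aire and with MBD-VP16 against the same vector arrays.

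MBD-VP16 was also set directly against Aire, as a difference of these 2 group means, with the vector arrays entering only the fit's estimate of the spread. None of the 36 members passed by limma (adjusted p), against 1.78% of all genes (1.68% higher and 0.101% lower), and 4 members had an unadjusted p under 0.05, against 11.5% of all genes. The 4 were HEXIM1 (log2 0.24), POLR2A (0.19), JMJD6 (0.42) and ATF7IP (-0.28). Arrays did not overlap for 15 members, 3 higher and 12 lower with MBD-VP16 (41.7%, against 19.8% of all genes and 23.6% at or above the median signal, with 8.93% of all genes higher and 10.9% lower). All 10 tested chromatin members had a lower mean with MBD-VP16 than with Aire, 8 of them without overlap and none past the test, and 10115 of all 17769 genes also had a lower mean. The median difference over the members was -0.06, that over all genes was -0.02, and that over genes at or above the median signal was -0.03. JMJD6 (0.42 ± 0.102; adjusted p = 0.0866) and ATF7IP (-0.28 ± 0.066; adjusted p = 0.074) missed the threshold. Each of them passed in 3 of 18 alternatives. For MSN the difference was 0.00 and for CCNT1 0.02.

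The genes around the members were read from 8 lists of their pathways and relatives, none of which holds a member. The lists were chosen with earlier results of these data known, so their shares are descriptive and no independent test. DNA double-strand break repair had the largest shares: with Aire 0 of 20 measured genes rose and 6 fell (30%), and with MBD-VP16 0 rose and 8 fell (40%). Of all genes, 4.58% fell with Aire and 7.67% with MBD-VP16. Of genes at or above the median signal, 7.9% and 12.8% fell. The 4 with the lowest adjusted p with Aire were the checkpoint kinase CHEK1 (log2 -0.48), the break sensor RAD50 (-0.40), the end-joining ligase LIG4 (-0.45) and the scaffold XRCC1 (-0.40). With MBD-VP16 they were CHEK1 (-0.53), RAD50 (-0.33), BRCA1 (-0.38) of homologous repair and the checkpoint activator TOPBP1 (-0.36). The XRCC1 call was lost in each of the 9 fits without 1 array (adjusted p up to 0.114), and the other 7 calls named in none. The median difference was -0.20 with Aire and -0.26 with MBD-VP16, where that of all genes was 0.02 and 0.00. Without vector replicate 1, 3 genes fell with Aire and 5 with MBD-VP16. Over all fits without 1 array, 3 or 4 fell with Aire and 5 to 9 with MBD-VP16. The Aire count was 3 without any single array other than MBD-VP16 replicate 2, and the MBD-VP16 count was 5 without vector replicate 1, MBD-VP16 replicate 1 or MBD-VP16 replicate 3.

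In the list of P-TEFb and elongation complexes, 28 of 30 genes were measured, and 1 rose and 2 fell in each comparison. This is a share of 10.7%, where 7.05% of all genes passed with Aire and 13.6% with MBD-VP16. MNAT1 (-0.42 in both) and CCNH (-0.44 and -0.48), partners of CDK7 in the kinase of TFIIH, fell, and MLLT3 (0.38 and 0.33) of the super elongation complex rose. The medians were -0.08 in both. MLLT3 lost its call in 8 of the 9 fits without 1 array in each comparison, all but that without vector replicate 1 (adjusted p up to 0.13 and 0.142), and CCNH lost the Aire call without vector 2, Aire 2 or Aire 3 (up to 0.0667). Of 18 nuclear transport genes 2 fell with Aire (CSE1L -0.26, KPNA4 -0.35) and 4 with MBD-VP16 (KPNA4 -0.50, CSE1L -0.30, NUP153 -0.32, XPO5 -0.36). These shares were 11.1% and 22.2%, where 4.58% and 7.67% of all genes fell. The importin alpha KPNA4 and its exporter CSE1L kept their MBD-VP16 calls in all 9 fits without 1 array. With Aire the CSE1L call was lost in all 9 and the KPNA4 call in 7, all but those without vector 1 or MBD-VP16 2 (up to 0.103 and 0.123). With MBD-VP16 the XPO5 call was lost without MBD-VP16 1 or 2 (up to 0.0628) and the NUP153 call without MBD-VP16 3 (0.0511). The medians were -0.11 and -0.20, and none rose.

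Of 18 splicing factors, SRSF7 fell with Aire (-0.37), and SRSF7 (-0.26), SRSF3 (-0.24) and PRPF19 (-0.25) fell with MBD-VP16, where the count was 0 without vector replicate 1 or without any 1 of the MBD-VP16 arrays (SRSF7 up to 0.0872). SRSF3 and PRPF19 lost their calls also without vector 2 or any 1 Aire array (up to 0.103 and 0.119). Of 13 cohesin genes none passed with Aire, and STAG1 (-0.54) and MAU2 (-0.25) fell with MBD-VP16. The MAU2 call was lost in all fits without 1 array except that without vector replicate 3 (up to 0.119). In a list of 20 genes headed NuRD and HP1 silencing, RBBP4 rose with Aire (0.26), a call that every fit without 1 array lost (up to 0.13). KMT2A, held in that list though not a component of NuRD or HP1, fell with MBD-VP16 (-0.39). Of 18 SUMO and acetylation enzymes none passed with Aire, and SENP1 (-0.28) and UBA2 (-0.26) fell with MBD-VP16, with 0 calls without vector 1, MBD-VP16 2 or MBD-VP16 3. SENP1 lost its call also without vector 3, and UBA2 also without vector 2, Aire 2, Aire 3 or MBD-VP16 1 (up to 0.0963 and 0.105). None of the 7 relatives of AIRE with a SAND or PHD domain passed in either comparison. The medians with Aire and MBD-VP16 were -0.10 and -0.12 for splicing, -0.02 and -0.14 for cohesin, 0.01 and -0.06 for NuRD and HP1, -0.06 and -0.10 for SUMO and acetylation, and -0.10 and -0.11 for the relatives of AIRE. The shares called with Aire and MBD-VP16 were 5.56% and 16.7% for splicing and 0% and 15.4% for cohesin. They were 5% and 5% for NuRD and HP1, and 0% and 11.1% for SUMO and acetylation. Of all genes, 7.05% and 13.6% were called, so these lists lay near or below the share of all genes. In the direct comparison no gene of these 8 lists passed, against 1.78% of all genes.

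**Figure D4:**
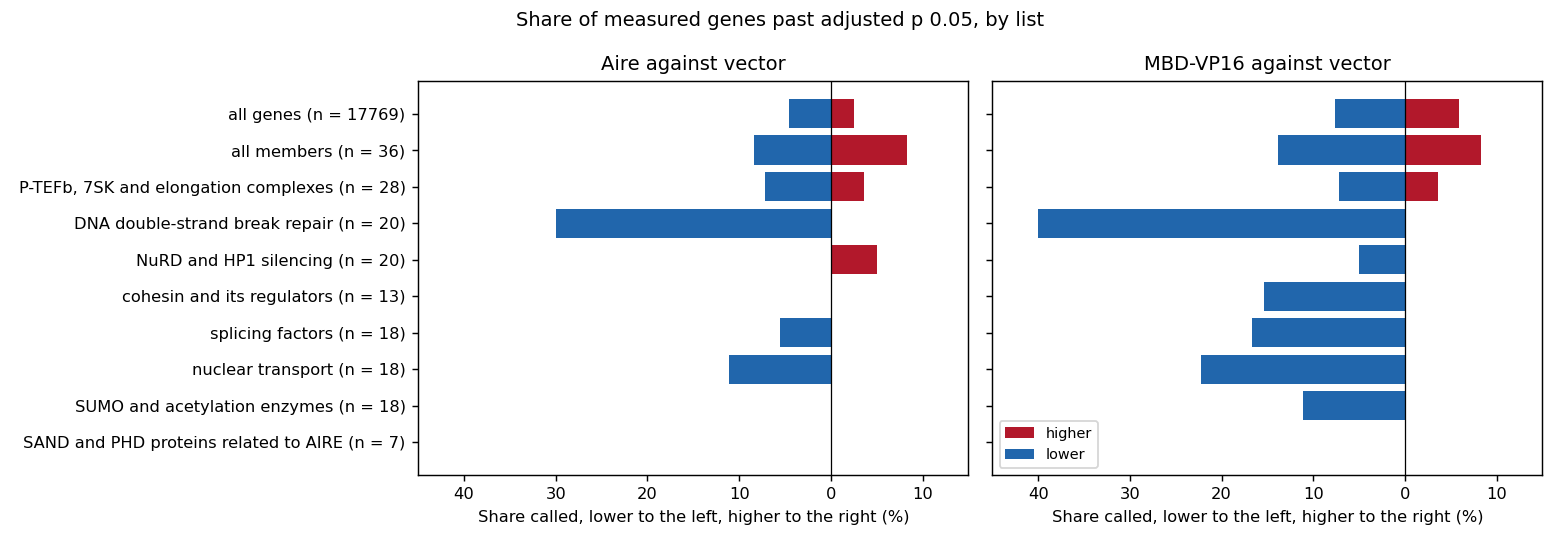
Share of measured genes that passed an adjusted p of 0.05 (%), lower to the left and higher to the right, for all genes, the tested members and 8 lists of related genes, with Aire and with MBD-VP16 against vector. Among the 8 lists, chosen with earlier results of these data known, DNA double-strand break repair has the largest share. Of its 20 genes, 30% were lower with Aire and 40% with MBD-VP16.

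The strength of the calls differed among members. Over the 18 other settings, which comprise 9 fits without 1 array and 9 changes of method, SMC3 passed in 18 with MBD-VP16 and CBX5 in 17 with Aire. At the other end, TRIM28 passed in 4 and DHX9 in 5 with MBD-VP16, and MSN in 6 with Aire. No called member changed its direction in any of these settings. For the fits without 1 array this was set in advance, since the arrays of a called member did not overlap those of vector. In the authors' deposited table, 3 of the 36 members had a false discovery rate under 0.05 with Aire (CBX5, TOP2A and JMJD6) and 5 with MBD-VP16 (CBX5, MSN, SMC3, CCNT1 and DHX9). All of these also passed here, and the log2 fold changes in the authors' deposited table were within 0.00667 of those computed. Both results come from the same 9 arrays. The share of all genes under 0.05 in the authors' table is not given here, so their counts have no background.

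**Figure D5:**
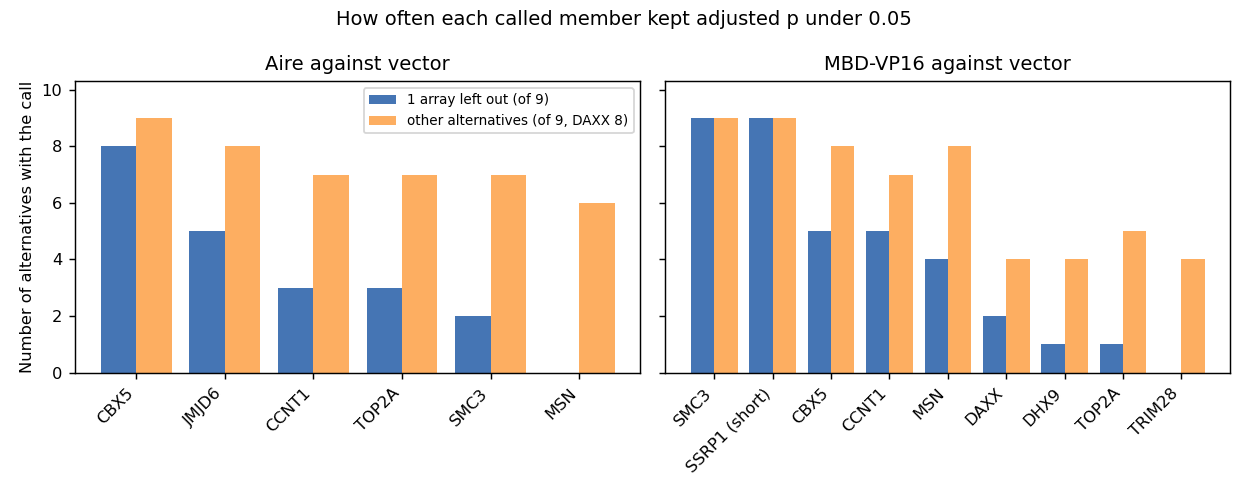
Number of alternative settings in which each called member, and the short SSRP1 cluster, passed an adjusted p of 0.05; blue bars count the 9 fits that left out 1 array, and orange bars the other settings, 9 for every member but DAXX with 8. SMC3 with MBD-VP16 passed in all 18 and the blue bar of TRIM28 is at 0.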

How the data were processed

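RNA of 9 cultures (3 per group, 72 h) was read on 1-colour arrays. The authors deposited 1 log2 value per transcript cluster and array, obtained by RMA according to the submitters' processing notes. The version of RMA, the annotation release and the genome build: not given in the sources used here. RMA compresses differences at low signal. A second file, the authors' deposited table, holds log2 fold changes with p-values and false discovery rates, whose test is not stated, and was used for gene symbols, positions and the comparison named as such. Its 9 per-array columns, which carry no sample labels, were not used. Of 28829 clusters, 3150 held no value. The 25679 others divided into 18683 with a single symbol, which entered the tests, 2535 with several symbols and 4461 without one. Symbols were updated through Entrez identifiers with a GRCh38.p14 gene table (17415 of 17769 matched), which also gave the promoter windows: 28 of 37 members had one, 18 of them exactly 1. One limma fit (version 3.58.1, R 4.3.3; lmFit, eBayes) used all 9 arrays with group as the only factor, no filter on signal, two-sided tests and Benjamini-Hochberg adjustment over the tested clusters, with a threshold of 0.05. The step was tested on simulated data. For genes with several clusters, the one with the highest mean was counted. Alternatives were all clusters with a value, clusters at or above the median signal (6.54), arrays centred on their medians, repeated quantile normalization, an intensity trend, array weights, the replicate block, no cross-hybridising clusters, only the 6 arrays compared, and each array left out.

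All 37 members are named, with up to 4 called genes of each pathway list by adjusted p, and MBD1. The members and lists were chosen with earlier results of these data known. Of the marker lists, FEZF2 of the 12 thymic epithelial genes rose with MBD-VP16 (0.68 over vector), none passed among 9 leukocyte or 8 fibroblast and endothelial genes, and of 8 HEK293 genes KRT18 fell with Aire (-0.38) and with MBD-VP16 (-0.41), LIN28B fell (-0.62) and NEFM rose (2.40) with MBD-VP16. Deviations from group means of equal replicate numbers correlated between -0.067 and 0.172, so the numbers were not taken to pair the arrays.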

Additional observations from a re-analysis of the deposited data

How the results depend on the processing

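No called member changed direction in any setting, which leaving out 1 array could not have brought about, as their arrays did not overlap those of vector. Uncalled members changed sign in some setting for 5 of 30 with Aire, 8 of 28 with MBD-VP16 and 9 of 36 between the regulators. In the main setting member calls numbered 6 with Aire, 8 with MBD-VP16 and 0 between the regulators. These are 16.7%, 22.2% and 0% of the members, against 7.05%, 13.6% and 1.78% of all genes. Adjusting over all clusters with a value gave 4 with MBD-VP16 (11.1%, against 10.9% of all genes). Clusters at or above the median signal gave 10 with Aire (27.8%) and 2 between the regulators (5.56%). Of the 8929 genes then tested, 2079 were called with Aire (23.3%) and 2.83% between the regulators. The main setting called 1253 of 17769 genes with Aire. An intensity trend gave 10, 13 and 3 members (27.8%, 36.1% and 8.33%). It called 2168 genes with Aire, 3301 with MBD-VP16 and 479 between the regulators (12.2%, 18.6% and 2.7%). The last number was 317 in the main setting. Array weights gave 2 members between the regulators (5.56%, against 2.67% of all genes). Only the 6 arrays of each comparison gave 1 member each with Aire and MBD-VP16 (2.78%), and 603 and 1567 genes (3.39% and 8.82%). The main setting had 2413 genes for MBD-VP16. The replicate block gave 3 members each with Aire and MBD-VP16 (8.33%) and 0 between the regulators. It called 928, 2152 and 255 genes (5.22%, 12.1% and 1.44%), although the replicate numbers share only a number. Leaving out 1 array gave 0 to 5 members with Aire (0% to 13.9%), 1 to 5 with MBD-VP16 (2.78% to 13.9%) and 0 between the regulators. It called 457 to 1086, 1305 to 2256 and 193 to 369 genes (2.57% to 6.11%, 7.34% to 12.7% and 1.09% to 2.08%). The fits over fewer arrays have fewer degrees of freedom; other causes were not tested. Among uncalled members, 5 of 30 with Aire, 6 of 28 with MBD-VP16 and 3 of 36 between the regulators passed in some setting. Shifts of the median over all genes stayed under 0.1 in every scaling. The alternatives for the pathway lists were chosen after seeing the data. With 3 arrays per group, changes near 0.2 log2 units lie close to what the fit can call. Signal over background was not measured here, so the limit it sets for AIRE, near the array median, is not known.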
